A study of Homo sapiens with 12 samples.

Results

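The genes of TGF-β signaling studied here were TGFB1, TGFBR1, TGFBR2, SMAD3, SKIL, PMEPA1, TGFBI, THBS1 and LTBP2. They were chosen by gene symbol, and all of their probes in the log2 table were taken, which gave 15 probes for 9 genes among 47231 probes for 31334 gene symbols. MDA-MB-231 cells, an established line from a human breast carcinoma, had been grown in 6 culture conditions with 2 arrays each, and RNA was measured on 12 Illumina HumanHT-12 BeadChips. The 5 altered conditions were MEM with 0.1% FBS (0.1% FBS), MEM with 10% horse serum (HS), DMEM with 10% FBS (DMEM) and RPMI-1640 with 10% FBS (RPMI-1640), all harvested at 90% confluence, and MEM with 10% FBS harvested at 50% confluence (50% confluence). Each was compared with MEM containing 10% FBS at 90% confluence, called MEM below, so that all 5 comparisons share the same 2 MEM arrays and are not independent of each other. All arrays come from this 1 cell line, and the labels do not say whether the 2 arrays of a condition came from separate cultures, so that p-values measure only the spread between these arrays.

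TGF-β is secreted in a latent form that is held in the matrix by latent TGF-β binding proteins. Once released, it binds the type II receptor TGFBR2, which phosphorylates the type I receptor TGFBR1, and this kinase in turn phosphorylates SMAD2 and SMAD3, which enter the nucleus with SMAD4 and bind target genes. In breast epithelium the pathway restrains growth, and in advanced breast cancer it is known for its part in invasion and metastasis.

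The 2 MEM arrays stood apart from the other 10. Across all probes they correlated with those at 0.9143 to 0.9402, while arrays of the other conditions correlated among each other at 0.9642 to 0.9914 and the 2 arrays within a condition at 0.9871 to 0.9956. The 6 markers of MDA-MB-231 cells that could be read were above background on every array, with a summed linear signal of 10685 to 17775 in the altered conditions and 20015 to 24000 in MEM. Of 9 luminal breast markers, 1 or 2 were above background in the altered conditions and 3 in MEM, among them KRT8 and EPCAM, and the summed signal was 1033 to 1128 in the altered conditions and 1951 to 2357 in MEM. That difference lay mostly in KRT8, at a mean log2 signal of 6.58 to 6.89 in the altered conditions and 10.04 in MEM. ESR1, PGR, FOXA1, KRT19 and TFF1 were not above background on both arrays of any condition. GATA3 was so only in DMEM, and ERBB2 was so in every condition, at a mean of 7.84 to 8.20. Of 10 melanocyte-lineage markers, 5 or 6 were above background in every condition, with sums of 10376 to 13166 in 0.1% FBS, 3099 to 6340 in the other altered conditions and 1984 to 2177 in MEM. Of 7 blood cell markers, 2 or 3 were above background in each condition, with sums of 1191 to 1507 in the altered conditions and 1749.8 to 1859.9 in MEM. ITGB2 was at a mean log2 signal of 7.34 to 7.59 in the altered conditions and 9.62 in MEM. CD68 was above background in every condition too, at a mean of 8.71 to 9.33, and CD14 in HS, DMEM, RPMI-1640 and MEM. PTPRC, CD3E, HBB and HBA1 were not above background on both arrays of any condition. These differences move with every comparison against MEM, and their part in the results was not tested. Arrays of whole cultures cannot tell fewer cells that express a gene from less RNA per cell. For this reason the differences among the 5 altered conditions, which do not use the MEM arrays, are given beside those against MEM.

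Values are log2 signals, given for the first and then the second array of a condition. The background of an array was taken as the 95th percentile of its 446 olfactory receptor probes, which lay between 6.89 and 6.99, with 16891 to 20563 probes above it. Of the 15 probes, 9 probes of 7 genes were above background on both arrays of at least 1 condition, 5 probes of TGFBR2, SMAD3, TGFBI and THBS1 were above it on every array, and 4 probes were above it on none. Calls rest on an adjusted p under 0.05 from limma, fitted to all 12 arrays, with the Benjamini-Hochberg correction over all probes within a comparison.

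The targets TGFBI and THBS1 and the type II receptor TGFBR2 differed between conditions, while the ligand TGFB1 and the type I receptor were not above background on any array. TGFBI, THBS1 and TGFBR2 were called in all 5 comparisons with MEM. TGFBI and TGFBR2 were lower in every altered condition, while THBS1 was lower in 0.1% FBS and higher in the other 4. To show the genes in question, the promoters of TGFBI, TGFBR2 and THBS1 are printed from 250 bases before to 50 bases after the start of the gene, from RefSeq on GRCh38.p14, at chr5:136028738-136029037, chr3:30606106-30606405 and chr15:39580829-39581128, all on the plus strand. Capitals mark the SMAD-binding core CAGAC and the GC box GGGCGG, each on either strand.
TGFBI: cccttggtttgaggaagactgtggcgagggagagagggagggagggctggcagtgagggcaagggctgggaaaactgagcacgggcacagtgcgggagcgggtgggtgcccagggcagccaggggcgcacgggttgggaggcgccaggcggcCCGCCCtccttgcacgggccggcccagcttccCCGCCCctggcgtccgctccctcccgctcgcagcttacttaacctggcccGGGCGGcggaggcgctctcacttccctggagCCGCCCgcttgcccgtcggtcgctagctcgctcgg
TGFBR2: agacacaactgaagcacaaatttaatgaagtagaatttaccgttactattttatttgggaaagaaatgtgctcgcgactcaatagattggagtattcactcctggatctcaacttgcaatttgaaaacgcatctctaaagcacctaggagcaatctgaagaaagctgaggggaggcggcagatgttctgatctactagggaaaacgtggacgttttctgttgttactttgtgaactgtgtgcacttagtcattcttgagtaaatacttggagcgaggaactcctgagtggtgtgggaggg
THBS1: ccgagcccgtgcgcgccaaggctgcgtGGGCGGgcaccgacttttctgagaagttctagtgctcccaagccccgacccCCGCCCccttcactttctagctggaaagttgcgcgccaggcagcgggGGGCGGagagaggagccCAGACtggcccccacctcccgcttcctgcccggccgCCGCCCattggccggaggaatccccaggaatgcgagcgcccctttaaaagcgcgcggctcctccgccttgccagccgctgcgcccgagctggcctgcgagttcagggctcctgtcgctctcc
The TGFBI window held 4 GC boxes and no SMAD core, that of TGFBR2 neither, and that of THBS1 4 GC boxes and 1 SMAD core, at position -108 from the start. Promoters of this length were found for all 9 genes. The SMAD core was present in 5 of them (TGFBR1, SMAD3, SKIL, THBS1 and LTBP2) and in 45.3% of 35116 promoters, and the GC box in 6 of them and in 45%. The palindromic SMAD element GTCTAGAC, in 0.202% of all promoters, the AP-1 site TGANTCA, in 7.71%, and the TATA box TATAAA, in 11.5%, were found in 0 of the 9 on either strand. The palindrome GTCTAGAC shares the letters AGAC with the SMAD core, and the other motifs were counted independently of each other. A match is a run of letters in this window and says nothing on binding in these cells.

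The ligand gene TGFB1 was not above background on any of the 12 arrays. Its 1 probe lay between 6.40 and 6.75, and its condition means spanned 0.14 on the log2 scale (limma's F test over 6 conditions, adjusted p = 0.91). TGFBR1, the type I receptor, was likewise not above background on any array, with its 1 probe at 6.53 to 6.86 (adjusted p = 0.606). With 1 probe for each gene, low RNA cannot be told from a probe that reads its RNA poorly. The third probe of TGFBR2, for example, lay at 6.68 to 7.12, while the brightest probe of that gene lay at 8.32 to 10.28. No difference between conditions was detectable for TGFB1 or TGFBR1.

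**Figure D1:**
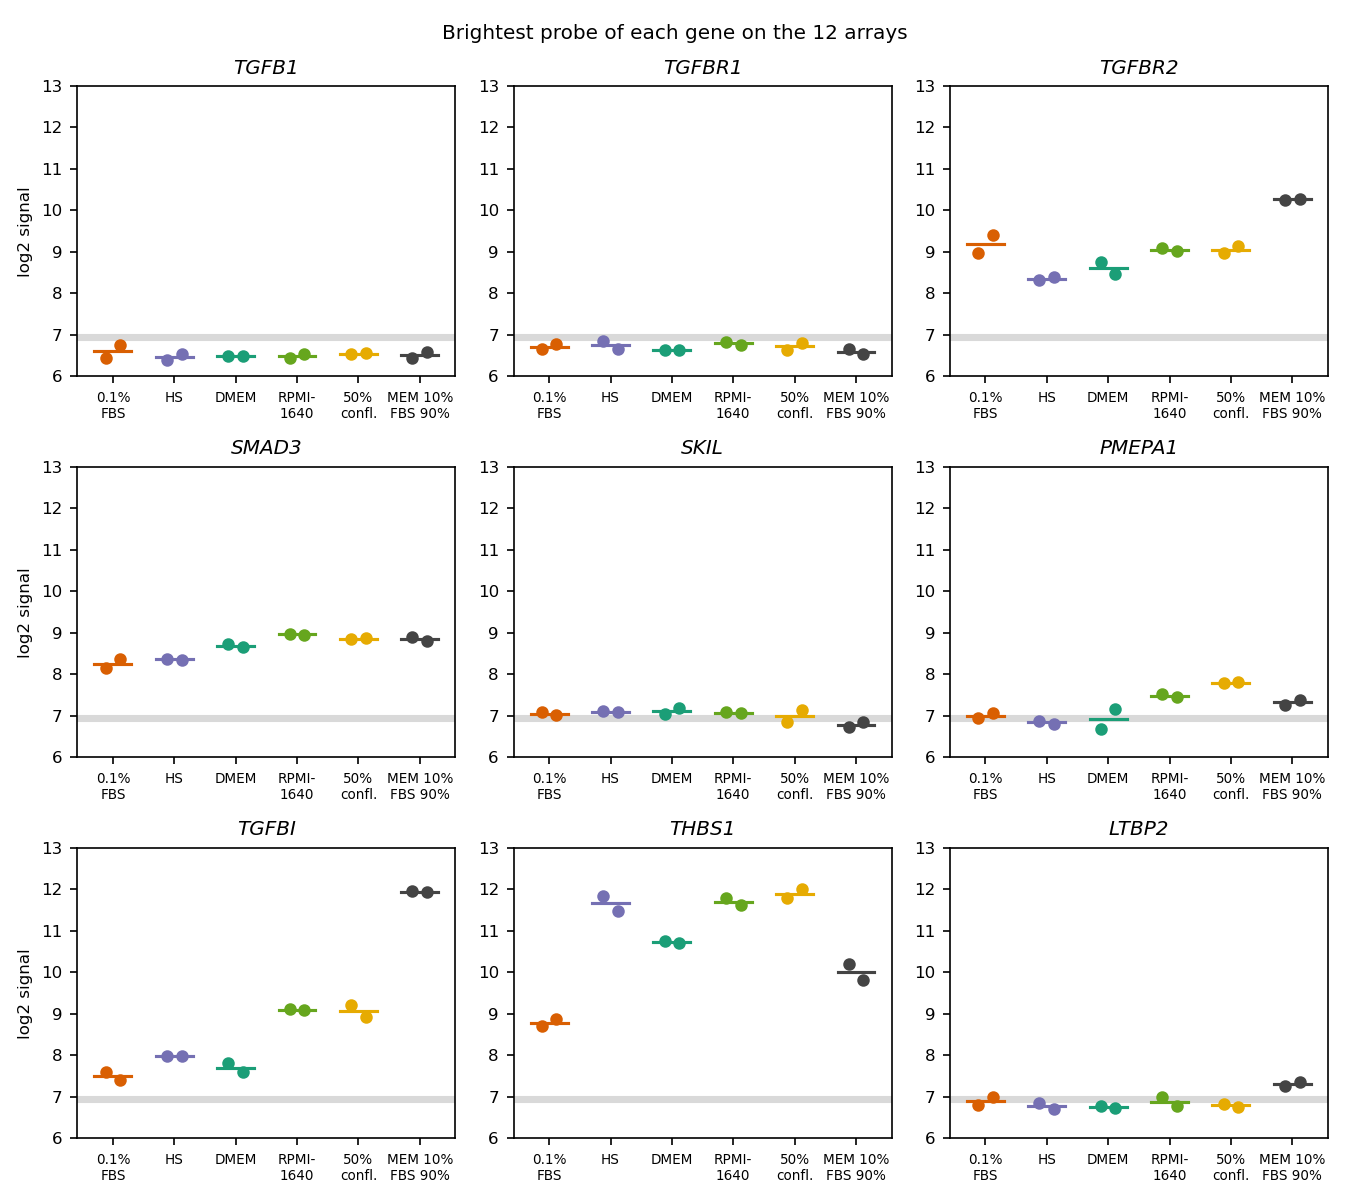
Log2 signal of the brightest probe of each of the 9 genes on the 12 arrays, by condition, with points for single arrays, a line for the mean of 2 arrays and a gray band for the range of the background. TGFB1 and TGFBR1 lay below the band, TGFBI and TGFBR2 were highest on both MEM arrays, and THBS1 ran between 8.70 and 12.003.

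TGFBR2 encodes the receptor that binds the ligand first. Its brightest probe (ILMN_2384241) was at 8.96 and 9.40 in 0.1% FBS, 8.32 and 8.39 in HS, 8.76 and 8.46 in DMEM, 9.09 and 9.01 in RPMI-1640, and 8.97 and 9.14 at 50% confluence, against 10.26 and 10.28 in MEM. Both MEM arrays were above all 10 others. The log2 difference was -1.92 in HS (standard error 0.13, 95% confidence interval -2.20 to -1.63, limma, adjusted p = 3.16e-08), which is a signal 3.78-fold lower than in MEM. It was -1.66 in DMEM (adjusted p = 1.51e-07 from limma) and ranged between -1.22 and -1.09 in the other 3 conditions, all called. The second probe (ILMN_1726245) was called lower in all 5 comparisons too, with log2 differences of -1.18 in 0.1% FBS, -1.77 in HS, -1.43 in DMEM, -1.29 in RPMI-1640 and -1.41 at 50% confluence. The third probe of the gene was above background on 4 of 12 arrays and was called in none.

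TGFBR2 also varied among the altered conditions. The F test over the 5 altered conditions gave an adjusted p of 0.00091 for the brightest probe and 0.0456 for the second (limma). HS was the lowest condition by mean on both probes. On the brightest probe, 0.1% FBS was higher than HS by 0.83 on the log2 scale (95% confidence interval 0.55 to 1.11, limma, adjusted p = 6.30e-04), and HS was lower than RPMI-1640 by a difference of -0.70 (adjusted p = 0.00345 from limma) and lower than 50% confluence by a difference of -0.70 (adjusted p = 0.00286). The second probe was called in the same direction for 0.1% FBS and for RPMI-1640 against HS. It was not called for HS minus 50% confluence (-0.36, adjusted p = 0.146 from limma). The probes also did not match for 0.1% FBS minus DMEM, with a log2 difference of 0.57 on the brightest (adjusted p = 0.0093 from limma) and 0.25 on the second (adjusted p = 0.326). HS and DMEM differed by -0.26 on the log2 scale, with an interval of -0.54 to 0.02, and were not called apart.

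SMAD3, the transcription factor that carries the signal to the nucleus, was lower in 0.1% FBS and in HS. It was at 8.14 and 8.37 in 0.1% FBS and 8.38 and 8.36 in HS, at 8.72 and 8.66 in DMEM, 8.99 and 8.95 in RPMI-1640 and 8.85 and 8.87 at 50% confluence, against 8.89 and 8.80 in MEM. The 4 arrays of 0.1% FBS and HS were below the other 8. The log2 difference from MEM was -0.59 in 0.1% FBS (standard error 0.10, limma, adjusted p = 1.84e-04) and -0.48 in HS (adjusted p = 0.00131). The other 3 conditions were not called against MEM, with intervals of -0.36 to 0.05 in DMEM, -0.08 to 0.33 in RPMI-1640 and -0.19 to 0.22 at 50% confluence. Over the 5 altered conditions, the F test gave an adjusted p of 1.68e-04 (limma). In this comparison 0.1% FBS was lower than RPMI-1640 by a log2 difference of -0.71 (adjusted p = 1.61e-04 from limma), lower than 50% confluence by -0.60 and lower than DMEM by -0.44, while 0.1% FBS and HS were not called apart (difference -0.11, interval -0.31 to 0.09). HS was called lower than RPMI-1640 and 50% confluence and not than DMEM (difference -0.33, adjusted p = 0.0661 from limma).

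SKIL and PMEPA1 encode inhibitors of the pathway that are themselves induced by it. SKIL binds SMAD proteins in the nucleus and represses their targets, and PMEPA1 keeps SMAD2 and SMAD3 from the receptor. SKIL was close to background, at 7.09 and 7.01 in 0.1% FBS, 7.12 and 7.08 in HS, 7.04 and 7.18 in DMEM, 7.08 and 7.07 in RPMI-1640, and 6.86 and 7.15 at 50% confluence, against 6.72 and 6.86 in MEM. The MEM arrays were both below background. The gene was called higher in HS (log2 difference 0.31, limma, adjusted p = 0.048, at least 1.14-fold) and in DMEM (0.32, adjusted p = 0.0438, at least 1.15-fold), but the F test over 6 conditions did not call it (adjusted p = 0.19). Each of these 2 calls was lost when any of the 4 arrays compared was left out, with adjusted p between 0.0548 and 0.328, and the HS call also with limma's trend and robust variance (adjusted p = 0.0531). The second SKIL probe was above background on no array.

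PMEPA1 separated the altered conditions from each other more than from MEM. Its brightest probe (ILMN_1734276) was at 6.95 and 7.06 in 0.1% FBS, 6.88 and 6.81 in HS, 6.69 and 7.16 in DMEM, 7.52 and 7.44 in RPMI-1640, and 7.79 and 7.82 at 50% confluence, against 7.27 and 7.39 in MEM. HS was below background on both arrays and DMEM on its first, and the arrays at 50% confluence were the highest. Against MEM, the log2 difference was -0.49 in HS (limma, adjusted p = 0.00892), so that MEM was at least 1.28-fold higher, -0.40 in DMEM (adjusted p = 0.0295) and 0.47 at 50% confluence (adjusted p = 0.0114). These calls were not stable to leaving out an array. The DMEM call was lost without either MEM array or the first DMEM array (adjusted p = 0.0724, 0.213 and 0.398), and without that DMEM array the difference was -0.17. The HS call was lost without the second MEM or the second HS array (0.0957 and 0.0553), and that at 50% confluence without the first MEM array or either array at 50% confluence (0.117, 0.0545 and 0.0695).

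Among the altered conditions, PMEPA1 had an adjusted p of 1.28e-04 in the F test (limma). At 50% confluence it was higher than in 0.1% FBS (0.1% FBS minus 50% confluence -0.80 on the log2 scale, limma, adjusted p = 4.23e-04), in HS (HS minus 50% confluence -0.96, adjusted p = 1.75e-04, at least 1.78-fold higher at 50% confluence) and in DMEM (DMEM minus 50% confluence -0.88, adjusted p = 3.58e-04). RPMI-1640 was called higher than the same 3 conditions, and was not called apart from 50% confluence (difference -0.32, interval -0.59 to -0.05, adjusted p = 0.44 from limma). The second probe (ILMN_2309156) was not called against MEM in any condition. It was called in the F test over the 5 altered conditions (adjusted p = 0.00779) and lower in 0.1% FBS, HS and DMEM than at 50% confluence. RPMI-1640 was called higher on it than HS, but not than 0.1% FBS (adjusted p = 0.136 from limma) or DMEM (adjusted p = 0.149). A further pair of probes of the gene reached background on 1 array or on none.

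TGFBI, which encodes a secreted matrix protein first found as a gene induced by TGF-β, had the largest differences from MEM among the 15 probes. Its probe (ILMN_1663866) was at 7.60 and 7.41 in 0.1% FBS, 7.99 and 7.99 in HS, 7.82 and 7.59 in DMEM, 9.11 and 9.09 in RPMI-1640, and 9.21 and 8.94 at 50% confluence, against 11.96 and 11.93 in MEM. All values were above background, both MEM arrays were far above the rest, and RPMI-1640 and 50% confluence lay above the other 3 conditions without overlap. The log2 difference was -4.44 in 0.1% FBS (standard error 0.11, 95% confidence interval -4.68 to -4.20, limma, adjusted p = 3.56e-13), a signal 21.7-fold lower than in MEM. It was 18.9-fold lower in DMEM (log2 difference -4.24, adjusted p = 6.71e-13 from limma), 15.5-fold lower in HS (-3.96, adjusted p = 1.37e-12), 7.30-fold lower at 50% confluence (-2.87, adjusted p = 5.58e-11) and 7.17-fold lower in RPMI-1640 (-2.84, adjusted p = 5.92e-11).

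TGFBI also differed among the altered conditions (limma's F test over 5 conditions, adjusted p = 1.81e-07). The signal in 0.1% FBS was below that in RPMI-1640 by a log2 difference of -1.60 (adjusted p = 5.44e-07 from limma) and below that at 50% confluence by -1.57 (adjusted p = 2.92e-07). HS was below RPMI-1640 by -1.11 and DMEM below RPMI-1640 by -1.40, both called. HS was also called below 50% confluence, the next condition in the order of means (-1.09, adjusted p = 3.24e-05 from limma). The other neighbors in the order were closer. RPMI-1640 and 50% confluence differed by 0.03 on the log2 scale with an interval of -0.21 to 0.27, 0.1% FBS and DMEM by -0.20 with an interval of -0.44 to 0.04, and HS and DMEM by 0.28 with an interval of 0.04 to 0.52, and none of these pairs was called, whereas 0.1% FBS was called lower than HS (-0.48, adjusted p = 0.00984 from limma).

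**Figure D2:**
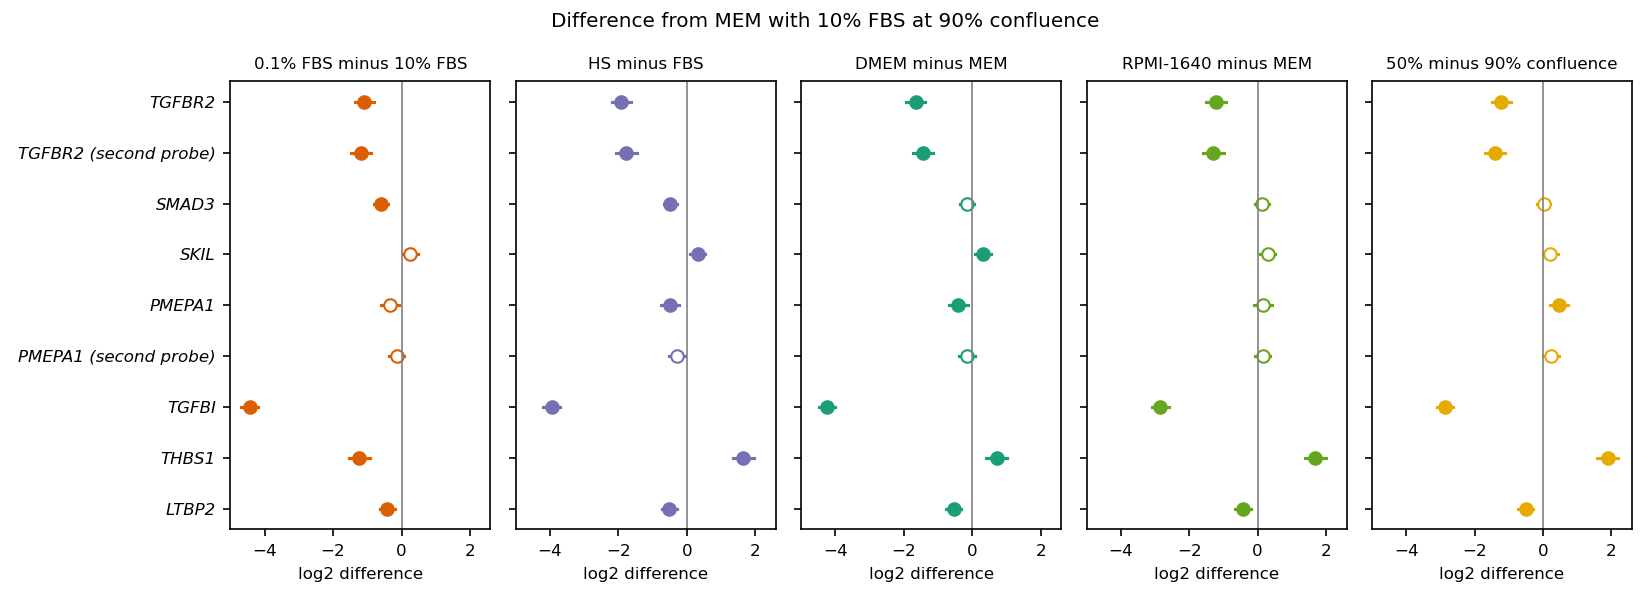
Log2 difference of each altered condition from MEM with 10% FBS at 90% confluence for the 9 probes above background in at least 1 condition, with 95% confidence intervals. Filled points were called by limma at an adjusted p under 0.05. TGFBI ran between -4.44 and -2.84 and THBS1 between -1.23 and 1.88.

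THBS1 encodes thrombospondin 1, a matrix glycoprotein that is a TGF-β target and can also release the active ligand from its latent form. Its probe (ILMN_1686116) was at 8.70 and 8.87 in 0.1% FBS, 11.85 and 11.49 in HS, 10.75 and 10.71 in DMEM, 11.79 and 11.61 in RPMI-1640, and 11.79 and 12.003 at 50% confluence, against 10.20 and 9.83 in MEM. Both arrays of 0.1% FBS were below those of MEM, and the 8 arrays of the other altered conditions were above them. The log2 difference from MEM was -1.23 in 0.1% FBS (standard error 0.14, 95% confidence interval -1.53 to -0.93, limma, adjusted p = 5.05e-06), or 2.35-fold lower. It was 1.88 at 50% confluence (3.69-fold higher, adjusted p = 7.43e-08 from limma), 1.69 in RPMI-1640 (3.22-fold, adjusted p = 2.52e-07), 1.65 in HS (3.15-fold, adjusted p = 2.79e-07) and 0.71 in DMEM (1.64-fold, adjusted p = 0.00121).

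Among the altered conditions, THBS1 had the lowest p of the 15 probes in the F test (limma, adjusted p = 9.12e-09). In 0.1% FBS it was 8.67-fold lower than at 50% confluence (log2 difference -3.12, interval -3.41 to -2.82, adjusted p = 3.41e-09 from limma) and 7.39-fold lower than in HS (-2.89, adjusted p = 2.4e-08). DMEM was lower than RPMI-1640 by a log2 difference of -0.97 (adjusted p = 6.59e-04 from limma) and lower than 50% confluence by -1.17 (adjusted p = 8.21e-05), and HS was higher than DMEM by 0.94 (adjusted p = 0.00116). HS, RPMI-1640 and 50% confluence were not called apart, with intervals of -0.33 to 0.27 for HS minus RPMI-1640, -0.53 to 0.07 for HS minus 50% confluence and -0.50 to 0.10 for RPMI-1640 minus 50% confluence.

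The 2 targets were correlated only without the MEM arrays, and not every pair of altered conditions moved alike. In HS, THBS1 was not called apart from RPMI-1640 (log2 difference -0.03), while TGFBI was called lower in HS than in RPMI-1640 (-1.11). Across the 10 arrays of the altered conditions, TGFBI and THBS1 correlated at r = 0.736, and across all 12 at r = 0.00745, as the plot of these genes against each other shows. TGFBI correlated with SMAD3 at r = 0.81 and with PMEPA1 at r = 0.823 over the 10 arrays, and at 0.595 and 0.451 over the 12. With the other members the r of TGFBI was nearer 0 without MEM, at 0.293 over the 10 arrays and 0.846 over the 12 with TGFBR2, at 0.0429 and 0.83 with LTBP2, and at -0.294 and -0.79 with SKIL. These are descriptions of 10 and 12 arrays in pairs, which share their culture conditions.

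**Figure D3:**
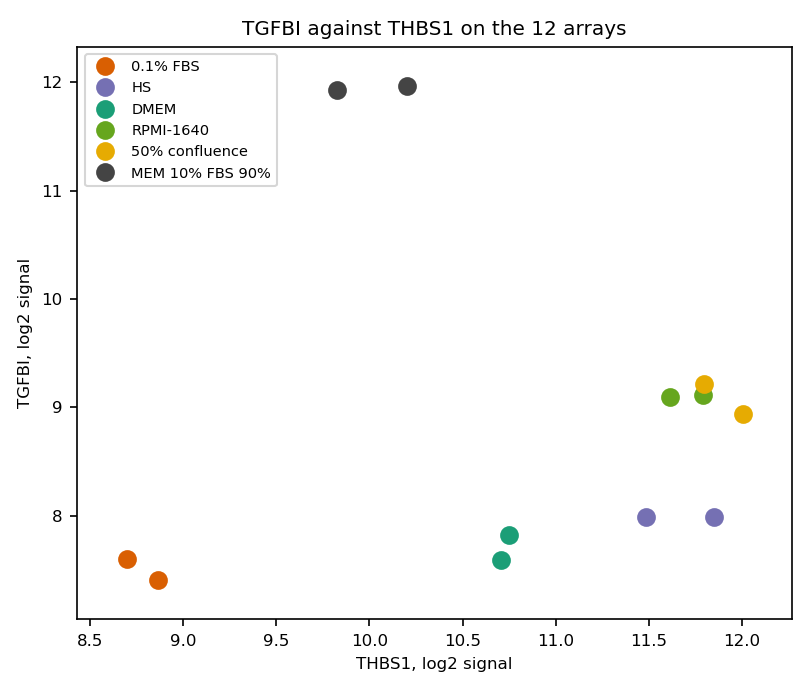
Log2 signal of TGFBI against that of THBS1, 1 point per array, colored by condition. The 2 MEM arrays stand alone at a TGFBI signal of 11.93 and 11.96, while the 10 other arrays lie between 7.41 and 9.21.

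LTBP2, a matrix protein of the family of latent TGF-β binding proteins, was above background on both arrays only in MEM. It was at 6.80 and 6.99 in 0.1% FBS, 6.85 and 6.72 in HS, 6.78 and 6.74 in DMEM, 6.99 and 6.77 in RPMI-1640, and 6.82 and 6.76 at 50% confluence, against 7.26 and 7.35 in MEM. The 2 MEM arrays were above all others, of which 1 in 0.1% FBS and 1 in RPMI-1640 exceeded background. The probe was called lower in all 5 conditions, and MEM was at least 1.26-fold higher than HS (log2 difference -0.52, limma, adjusted p = 0.00141), at least 1.28-fold higher than DMEM (-0.54, adjusted p = 0.00101) and at least 1.28-fold higher than 50% confluence (-0.51, adjusted p = 0.00174). The log2 difference was -0.41 in 0.1% FBS (adjusted p = 0.00754) and -0.43 in RPMI-1640 (adjusted p = 0.00711). The call in 0.1% FBS was lost without the second MEM array (adjusted p = 0.0848) or the first array of 0.1% FBS (0.093), and that in RPMI-1640 without the second MEM array (0.0837) or the second RPMI-1640 array (0.113). With most of its values in the altered conditions at background, the probe could not be compared among them.

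Over all 15 probes, 6 were called in 0.1% FBS (0 higher and 6 lower, where 22.3% of all probes were called, 10.9% higher and 11.5% lower) and 8 in HS (2 higher and 6 lower, with 21.9% of all probes, 10.4% higher and 11.5% lower), and 7 in DMEM (2 higher and 5 lower, with 20.9%, 10.0% higher and 10.9% lower). In RPMI-1640 5 were called (1 higher and 4 lower, with 19.2% of all probes, 9.42% higher and 9.82% lower), and at 50% confluence 6 (2 higher and 4 lower, with 19.8%, 9.42% higher and 10.3% lower). The share of all probes includes the many at background. Of the 21440 probes above background on both arrays of at least 1 condition, 41.4 to 48% were called in the 5 comparisons. Median log2 differences of the 15 probes were -0.14, -0.06, -0.15, 0.06 and 0.06 in the same order of conditions, and those of all probes lay between 0.00 and 0.01. The F test over 6 conditions called 8 of the 15, where it called 30.1% of all probes and 65.2% of the 21440 above background. That over the 5 altered conditions called 7, against 19.9% and 43.3%. It did not call SKIL or LTBP2, and LTBP2 was not above background on 8 of the 10 arrays of these conditions. In the 10 pairs of altered conditions, 35 of 150 probe and pair combinations were called (23.3%, against 7.96% over all probes). This count takes the 2 brighter probes of TGFBR2 and of PMEPA1 separately, and the 7.96% includes the many probes at background. The pairs that involve 0.1% FBS had 4 calls against HS (11.5% of all probes), 3 against DMEM (11.9%), 4 against RPMI-1640 (8.53%) and 5 against 50% confluence (10.8%). HS had 1 call against DMEM (5.04%), 6 against RPMI-1640 (8.46%) and 5 against 50% confluence (9.48%), and DMEM had 3 against RPMI-1640 (5.33%) and 4 against 50% confluence (8.35%). RPMI-1640 minus 50% confluence had 0 (0.220%).

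The remainder of the pathway was read from 62 further genes in 6 lists, each gene by its brightest probe. Of these, 45 were above background on both arrays of at least 1 condition. They include 15 of 16 other targets and 6 of 9 other receptors. The share of all symbols given beside each list includes the many at background. Among 16 other targets, 10 were lower and 1 higher in 0.1% FBS (25.5% of all symbols were called in either direction), 9 and 0 in HS (24.7%), 8 and 0 in DMEM (23.9%), 8 and 1 in RPMI-1640 (21.8%) and 8 and 1 at 50% confluence (22.5%). The median log2 difference of the list was -0.53, -0.74, -0.42, -0.30 and -0.44 in that order, against 0.00 to 0.01 over all symbols. CTGF, which encodes a secreted matrix protein, averaged 7.43 ± 0.26 in 0.1% FBS, 7.76 ± 0.03 in HS, 7.37 ± 0.30 in DMEM, 7.79 ± 0.02 in RPMI-1640 and 8.60 ± 0.20 at 50% confluence, against 10.96 ± 0.02 in MEM (SD, n = 2 arrays each). It was called lower in all 5, by log2 differences of -3.60 in DMEM (limma, adjusted p = 5.91e-11) to -2.36 at 50% confluence (adjusted p = 7.31e-09).

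COL4A1, a chain of basement membrane collagen, averaged 6.78 in 0.1% FBS, 6.75 in HS, 6.70 in DMEM, 7.07 in RPMI-1640 and 7.10 at 50% confluence, against 8.69 in MEM. It was not above background on either array in 0.1% FBS, HS or DMEM, and MEM was at least 3.35-fold higher than 0.1% FBS (limma, adjusted p = 6.97e-10), at least 3.28-fold higher than HS and at least 3.35-fold higher than DMEM. The log2 difference was -1.62 in RPMI-1640 and -1.59 at 50% confluence. IL11, a cytokine of the interleukin-6 family, was above background on 4 arrays, 2 of them in MEM. MEM was at least 2.31-fold higher than 0.1% FBS (adjusted p = 6.12e-08 from limma), at least 2.26-fold higher than HS and at least 2.30-fold higher than 50% confluence. The altered conditions separated CTGF (limma's F test, adjusted p = 8.98e-05), which was above background on all 12 arrays.

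**Figure D4:**
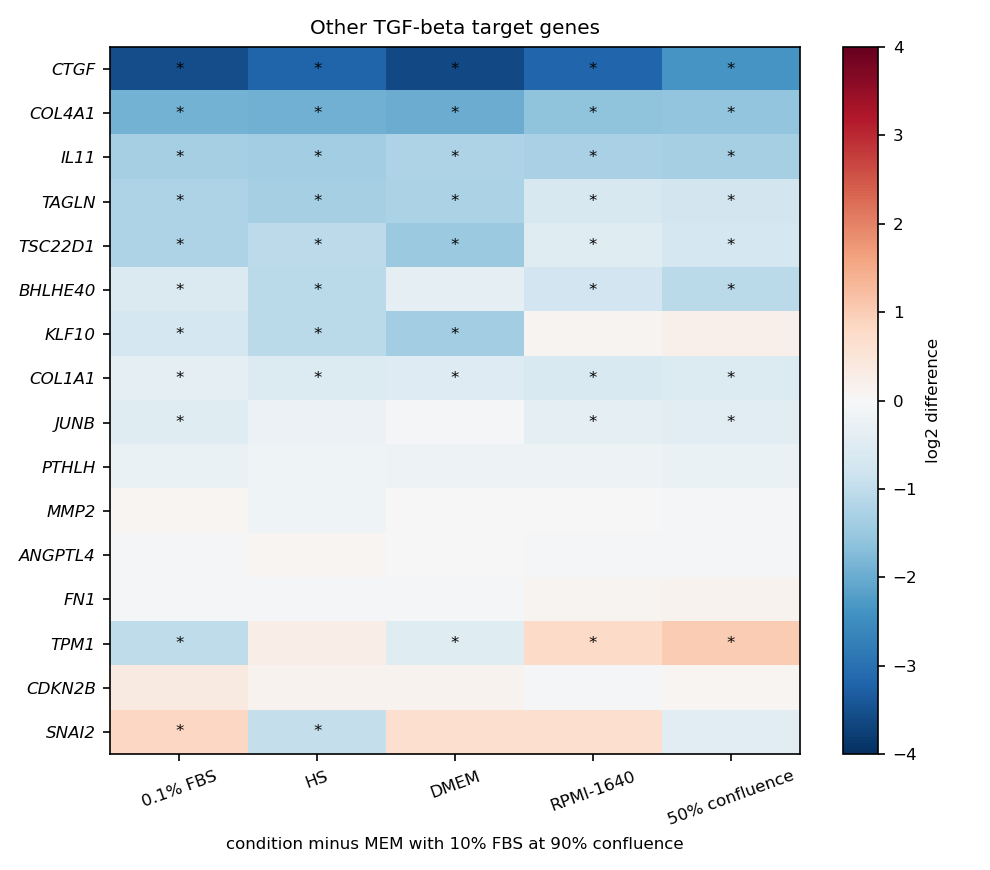
Log2 difference from MEM with 10% FBS at 90% confluence of 16 other TGF-β target genes in the 5 altered conditions, with blue for lower, red for higher and a star for an adjusted p under 0.05 by limma. CTGF and COL4A1 were lower in all 5 conditions, and TPM1 had both signs.

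Other targets separated the altered conditions from each other. TPM1, an actin-binding tropomyosin, was lower than MEM in 0.1% FBS (log2 difference -1.02, limma, adjusted p = 5.74e-06) and in DMEM (-0.48) and higher in RPMI-1640 (0.78) and at 50% confluence (1.01), and its means spanned 2.03 over the 5 altered conditions (F test, adjusted p = 9.13e-08). KLF10, a transcriptional repressor induced early by TGF-β, was lowest in DMEM (-1.38 from MEM, at least 2.34-fold higher in MEM). It was also called lower in HS (-1.07) and 0.1% FBS (-0.69), and was not called in RPMI-1640 (0.12) or at 50% confluence (0.19). SNAI2, a transcription factor that represses E-cadherin, was called higher in 0.1% FBS (0.84, adjusted p = 0.0152 from limma) and lower in HS (-0.94, adjusted p = 0.00746). It spanned 1.77 over the altered conditions, between 0.1% FBS and HS. The 2 arrays of 0.1% FBS lay far apart (mean 9.65, SD 0.83), which limits both that difference and the span. SNAI2 was not called in DMEM (0.66, adjusted p = 0.0613 from limma) or RPMI-1640 (0.67, adjusted p = 0.0586).

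Receptors other than TGFBR1 and TGFBR2 moved both ways. Of 9 such genes, 2 were higher in each of the 5 comparisons, and 2 or 3 were lower (44.4 to 55.6% called, against 21.8 to 25.5% of all symbols). BAMBI, a decoy receptor without kinase activity, rose in all 5, by log2 differences of 1.63 in 0.1% FBS, 0.87 in HS, 2.20 in DMEM, 2.14 in RPMI-1640 and 1.64 at 50% confluence (limma, adjusted p = 7.45e-05 in HS and lower in the others). ACVR1, a type I receptor used by BMPs and activins, rose by 1.46 in 0.1% FBS and by 0.52 to 1.07 in the other 4. Endoglin (ENG), a co-receptor, fell in all 5, by 1.70 in 0.1% FBS to 1.23 in HS (limma, adjusted p = 1.46e-09 and 7.46e-08). Betaglycan (TGFBR3), the co-receptor that presents TGF-β to TGFBR2, fell by 1.29 in HS (adjusted p = 3.69e-06 from limma). It was also called lower at 50% confluence (-0.98), in DMEM (-0.62) and in RPMI-1640 (-0.58), and was not called in 0.1% FBS (0.23).

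Among 7 other ligands, 0 were higher and 1 or 2 lower in each comparison, which is 14.3 to 28.6% of the list where 21.8 to 25.5% of all symbols were called. INHBB, the activin B subunit, was called lower in all 5. It was above background on both arrays only in MEM and on 3 arrays in all, and MEM was at least 1.62-fold higher than 50% confluence and at least 1.66-fold higher than RPMI-1640. TGFB2 was lower in DMEM (-0.76, limma, adjusted p = 6.35e-04). Of 11 genes of latency and activation, 0 to 2 were higher and 1 or 2 lower (18.2 to 36.4% called, against the same 21.8 to 25.5%). LTBP4 was lower in 4 of the 5 conditions, by -1.01 in 0.1% FBS, and LTBP3, a related binding protein, was higher in HS, DMEM and RPMI-1640 by 0.48 to 0.57. ITGAV, a subunit of integrins that activate the latent ligand, was lower in all 5, by -1.07 at 50% confluence (limma, adjusted p = 9.47e-05).

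SMAD4, the partner of SMAD3, rose in all 5 conditions, by log2 differences of 1.00 in 0.1% FBS, 0.51 in HS, 0.65 in DMEM, 1.13 in RPMI-1640 and 1.10 at 50% confluence (limma, adjusted p = 0.0059 in HS and lower in the others). It was the 1 higher gene among 7 SMADs and partners in each comparison, while 0 or 1 were lower (14.3 to 28.6% called, against 21.8 to 25.5% of all symbols). Of 12 negative regulators, 1 or 2 were higher and 2 to 5 lower (25 to 50% called, near the share of all symbols in RPMI-1640). SMAD6, an inhibitory SMAD, was lower in 0.1% FBS (-0.77, limma, adjusted p = 8.77e-05) and in HS (-0.93, adjusted p = 1.71e-05, at least 1.83-fold higher in MEM). The ubiquitin ligase NEDD4L was lower in all 5, by -0.91 to -0.55, and TGIF1, a corepressor, was lower in DMEM by -1.07 (adjusted p = 1.93e-05). Over the 62 genes, 24 were called in 0.1% FBS (38.7%, against 25.5% of all symbols), 26 in HS (41.9%, against 24.7%), 24 in DMEM (38.7%, against 23.9%), 22 in RPMI-1640 (35.5%, against 21.8%) and 23 at 50% confluence (37.1%, against 22.5%), with 6 higher in each. The F test over the altered conditions called 26 (22.6% of all symbols). These shares are not matched by signal, since 45 of the 62 genes were above background in at least 1 condition. Of all probes above background in that sense, 41.4 to 48% were called in the 5 comparisons with MEM and 43.3% in the F test over the altered conditions.

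The genes most like a member over the 12 arrays, among 15381 symbols above background, are given by Pearson's r with r over the 10 arrays without MEM beside it, as a description of these arrays. For TGFBI they were ACTG2 (0.994 and 0.971), SHB (0.984 and 0.911) and FZD2 (0.98 and 0.906). For THBS1 they were ATL3 (0.959 and 0.988), RRP7A (0.948 and 0.951) and AGPAT9 (0.939 and 0.936). SMAD3 was most like CTNNBIP1 (0.987 and 0.988), CCNA2 (0.977 and 0.981) and BAG3 (0.966 and 0.97), and TGFBR2 like CRNKL1 (0.974 and 0.932), IFT57 (0.97 and 0.923) and DCBLD1 (0.969 and 0.92). PMEPA1 had SNORD110 first (0.934 and 0.966). For the dim genes, LTBP2 had KBTBD11 first (0.96 and 0.736) and SKIL had SAMD11 (0.934 and 0.872), and both had a lower r without MEM.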

How the data were processed

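RNA of MDA-MB-231 cells (6 conditions, 2 arrays each) was hybridized to Illumina HumanHT-12 v4 BeadChips and exported with BeadStudio, per the labels. The authors deposited signal intensities already quantile-normalized between arrays and the same signals as log2 values. The deposited log2 values were used as they stand. Quantile normalization sets all arrays to 1 distribution and can hide a shift shared by most genes. The 2 tables differ in 8 probes, none of these genes. Detection p-values were not used here. Limma was fitted to all 12 arrays with 1 mean per condition (6 residual and 8.957 prior degrees of freedom), with Benjamini-Hochberg adjustment over 47231 probes. A gene not above background on either array of the dimmer condition has a lower bound for its fold ("at least"), computed with each of those arrays at its background. This bound is on the ratio of the means and holds no sampling error, so that a confidence interval can reach below it. The number of arrays limits the precision of each mean.

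The genes and lists were chosen with earlier results of these data known. Text covers all probes of the 9 genes. Genes of the lists were drawn from up to 3 called genes per list and comparison with the largest differences. The same was done for the widest range over the altered conditions, and not all genes so drawn are named. The 3 genes most like a member are given for TGFBI, THBS1, SMAD3 and TGFBR2, and only the first for PMEPA1, LTBP2 and SKIL. A gene's brightest probe stands for it in the lists, in which 62 of 62 genes were found. A target gene and a marker that were first on these lists are not reported here. Alternatives were other scaling, the linear or the series values, a background filter, 1 probe per gene, a fit to the compared groups, a trended and robust variance, a block for replicate number, the methods' t-test, a 2-fold limit and leaving out each array. The fits used limma 3.58.1 in R 4.3.3, and the figures matplotlib 3.10.9 in Python 3.11.15.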

Additional observations from a re-analysis of the deposited data

How the results depend on the processing

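Counts of called probes among the 15 moved by more than 1.5 times only with another test or a limit on the fold. The methods' t-test, on 2 against 2 arrays without shared variance, called 1 probe in 0.1% FBS, 2 in HS, 1 in DMEM, 1 in RPMI-1640 and 0 at 50% confluence at P under 0.001, and 2 in the 10 pairs of altered conditions. After Benjamini-Hochberg adjustment it called 0, 1, 0, 1 and 0 in the same order and 0 in the 10 pairs. Over all probes that test gave 603 to 804 calls per comparison at P under 0.001 and 35 to 330 after adjustment, against 9087 to 10547 by limma. With an added 2-fold limit, 4 probes remained in HS, 3 in DMEM and 11 in the pairs. Leaving out 1 array gave 5 to 7 calls in 0.1% FBS, 6 to 8 in HS, 5 to 7 in DMEM, 4 to 6 in RPMI-1640, 5 to 6 at 50% confluence, 7 to 8 in the F test over 6 conditions, 6 to 7 in that over the altered conditions and 30 to 37 in the pairs. With replicate number as a block the counts were 6, 8, 7, 5, 6, 8, 7 and 35. Deviations of same-numbered arrays correlated at -0.105 to 0.216 over 15 pairs of conditions, 3 of them over 0.1. With 2 arrays per condition, these values cannot decide whether the numbers pair the arrays. A fit without the MEM arrays, chosen after seeing the data, called 6 probes in the F test over the altered conditions and 32 in the pairs. For the single differences from MEM of the 9 probes above background, 344 of 405 values under other processing kept direction and side of the threshold, 58 lost the call (57 of them under the methods' t-test), 3 gained one and 0 reversed. Without 1 array, 159 of 180 did so, 20 lost the call, all of SKIL, PMEPA1 or LTBP2, and 1 gained one. The calls of TGFBI, THBS1, TGFBR2 and SMAD3 against MEM stood under each of these processing settings with limma and without any 1 array, but with the added 2-fold limit SMAD3 in 0.1% FBS and HS (log2 differences -0.59 and -0.48) and THBS1 in DMEM (0.71) would not pass. Signals near background limit SKIL, PMEPA1 and LTBP2, and TGFB1 and TGFBR1 could not be compared.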
